A study of Mus musculus with 5 samples.

Results

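The 35 genes described here are nuclear receptors, the coregulators that receptors recruit, and transcription factors of the hepatocyte. They were taken as a fixed list of symbols, and each was found through array probes carrying that symbol as gene name, 75 probes of 41174 and 35 gene names of 28090. The brightest probe of a gene, by its mean over the arrays, stood for the gene. The list holds 21 receptors, of which 5 sense sterols, fatty acids or foreign compounds, 5 bind steroid or thyroid hormones and 11 were grouped as orphan receptors. It also holds 6 coregulators and 8 hepatocyte transcription factors. On all 5 arrays 31 of the 35 genes were well above background, and Hnf4g, Nr2f1, Nr3c2 and Ppard were well above it on no array, with any of their probes.

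Liver RNA came from male C57BL/6J mice, an inbred laboratory strain, aged 25 weeks. Control mice were untreated, and their diet is not described further. HFHFr-F mice ate a diet rich in fat and fructose (HFHFr) for 20 weeks and are labelled as severely insulin resistant. The other groups ate it for 16 weeks and then received 4 weeks of a normal diet (HFHFr-N, labelled insulin resistant), the normal diet with all-trans retinoic acid (HFHFr-NA, labelled as recovered), or the HFHFr diet with all-trans retinoic acid (HFHFr-FA, labelled as free of insulin resistance with slight steatosis). All-trans retinoic acid is a vitamin A derivative and the ligand of the retinoic acid receptors. RNA of 5 mice per group was pooled onto 1 array, so no value has a replicate check and no test between groups was possible. "Higher" and "lower" below describe these pools.

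Nuclear receptors are transcription factors with a pocket for a small molecule such as a hormone, an oxysterol or a drug. Many bind DNA in pairs with a retinoid X receptor at copies of a short half-site. Coactivators and corepressors bound to the receptor set whether the gene nearby is transcribed. In the hepatocyte they work beside the hepatocyte nuclear factors, the forkhead FOXA proteins and the C/EBP proteins, which together maintain the genes of lipoprotein assembly, bile acid synthesis, gluconeogenesis and drug metabolism. Much of their regulation is by ligand, partner or modification of the protein, which transcript levels do not show.

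Signals are given in units of the array's 75th percentile, and a log2 ratio compares the signals of 1 gene on 2 arrays. The arrays had 46.7% to 49.4% of non-control spots well above background. Spots of the probes printed 10 times had a median standard deviation of 0.0652 to 0.0818 on the log2 scale, a spread within an array that leaves out mice and hybridisations. HFHFr-FA was alone on the second slide with its own scan, so that group and its slide cannot be told apart. Cyp26a1, the retinoic acid hydroxylase and a known retinoic acid target, was higher by 1.11 in HFHFr-FA over HFHFr-F and by 1.40 in HFHFr-NA over HFHFr-N, in the labelled direction of the supplement. Its log2 ratio was -2.47 in HFHFr-F over control and 2.4 in HFHFr-N over HFHFr-F. The rise on the HFHFr diet thus began from a low HFHFr-F signal. All 7 hepatocyte markers found were measured on every array. Their summed signal was lowest in HFHFr-F, 3180, against 3310 to 4160 elsewhere. Summed markers of lipid-associated macrophages, 7 of 7 measured on at least 1 array, were 92.0 in HFHFr-F and 15.7 to 23.2 elsewhere. The 9 markers of Kupffer cells and macrophages summed to 134 in HFHFr-F and 125 in HFHFr-FA, against 66.7 to 83.5. In HFHFr-F over control 5 of the 9 were at least 1.5-fold higher and 1 lower, where 11.7% of all genes were higher and 11.6% lower. Cholangiocyte markers, 5 of 6 measured, summed to 62.2 in HFHFr-F and 8.45 to 11.3 elsewhere, of which Spp1, also on the lipid-associated macrophage list, gave 60.4. The dimmer Krt7, Krt19 and Cldn7 were also higher in HFHFr-F over control, by 1.2, at least 1.3 and 1.15. Sox9 was at -0.11 in that comparison. The 8 stellate cell markers ranged from 71.8 in control to 104 in HFHFr-FA, most of it Dcn (64.0 to 89.6). Within that list the collagen gene Col1a1 was 0.209 in control, 3.64 in HFHFr-F, 1.1 in HFHFr-FA, 0.41 in HFHFr-N and 0.299 in HFHFr-NA, and Pdgfrb was higher in HFHFr-F over control by 1.52. The 7 endothelial markers ranged from 24.2 in HFHFr-F to 36.1 in HFHFr-N and the 4 erythroid markers from 228 in HFHFr-FA to 551 in HFHFr-F. The endothelial list was split in HFHFr-F over control, with 2 markers at least 1.5-fold higher and 2 lower. Its median log2 ratio there was 0.06, so the sum does not describe each marker. The 4 neutrophil markers summed to 2.35 in control, 11.4 in HFHFr-FA and 3.77 to 6.74 elsewhere, and T and NK cell (4 of 6 measured) and B cell (3 of 4) markers to no more than 1.62 on any array. In whole liver, fewer cells of a type and less RNA per cell cannot be told apart, and the part of these markers in the results below was not tested.

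The receptors and factors differed little between these pools. None of the 31 measured genes was 2-fold apart in any of 5 comparisons. Over the 5 arrays the range from the lowest to the highest log2 signal had a median of 0.51 for them and 0.57 for all 12964 genes measured on all arrays. It ran from 0.15 for the coactivator Ncoa1 to 1.19 for Cebpd. Only Cebpd, Ppargc1b, Esrra and Nr2f2 spanned 2-fold or more, which is 12.9% of the 31 and compares with 16.0% of all genes. The array with the lowest signal was HFHFr-F for 17 of the 31 genes, among them 4 of 6 coregulators and 5 of 9 measured orphan receptors. Among all genes HFHFr-F was lowest for 31.2%. Some of the 17 were lowest there by less than the spread between spots given above. For Thra HFHFr-F was at a log2 signal of 1.55 and HFHFr-FA at 1.56, and for Ncoa1 they were at 2.35 and 2.36. For Ncor1 HFHFr-F was at 3.23 and HFHFr-N at 3.27. The order of the arrays was counted under the main scaling only. The highest signal was on HFHFr-FA for 9 genes and on HFHFr-NA for 9, and on HFHFr-F for the xenobiotic receptor Nr1i2 alone. Among all genes HFHFr-FA was highest for 18.4%, HFHFr-NA for 27.7% and HFHFr-F for 16.7%.

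**Figure D1:**
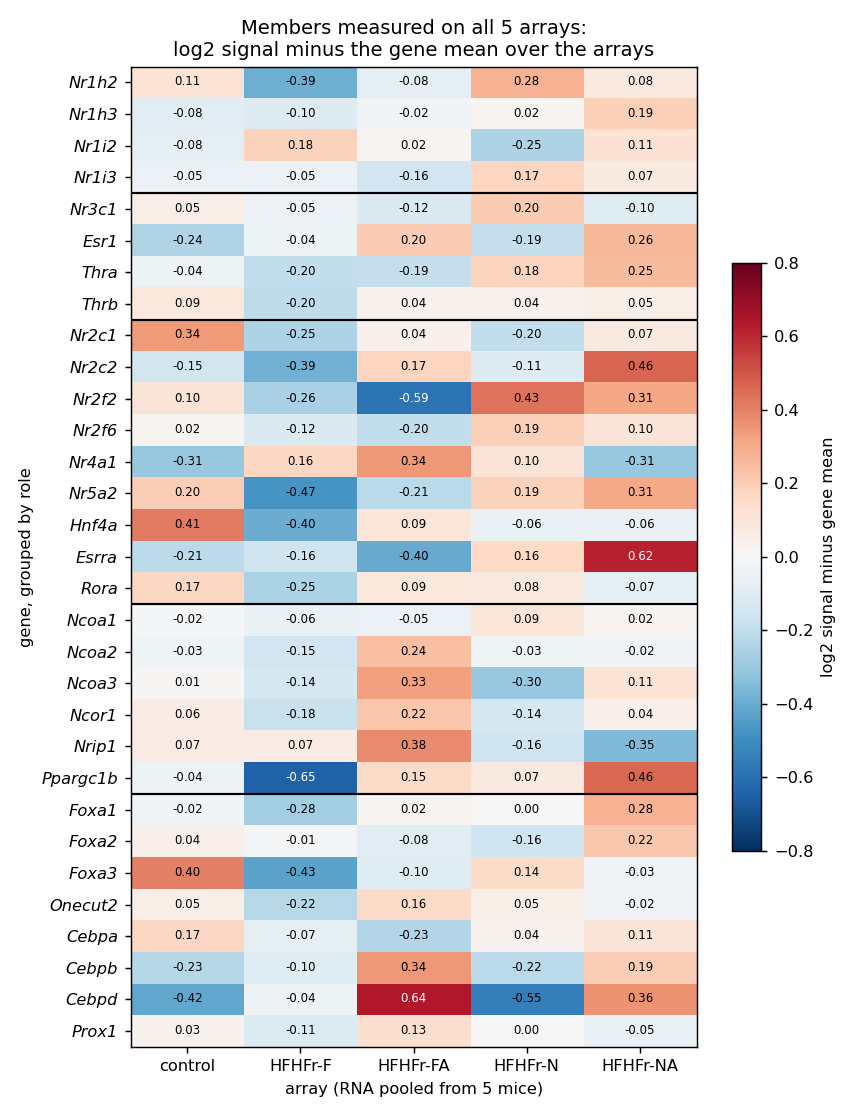
The log2 signal of each of the 31 measured genes (rows, by role) on the 5 arrays (columns), after subtracting the gene's mean over the arrays; blue is below and red above that mean, and horizontal lines part the roles. The HFHFr-F column is blue or near white for most rows, and the range of a row is widest for Cebpd, 1.19, and narrowest for Ncoa1, 0.15.

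The first comparison, HFHFr-F over control, asks what 20 weeks of the diet left in the liver. In it the receptors and factors lay mostly below control. Of the 31 genes 25 had a log2 ratio under 0, against 57.2% of all genes, and the median was -0.15, against -0.08. At least 1.5-fold lower were 5 of 31 (16.1%), namely the forkhead factor Foxa3, the orphan receptors Hnf4a, Nr5a2 and Nr2c1, and the coactivator Ppargc1b. At this fold 11.6% of all genes were lower and 11.7% higher. After median centring 9.68% of the 31 and 9.73% of all genes were lower, and after cyclic loess 6.45% and 7.93%, so under these scalings the share of the 31 was not above that of all genes. After normexp and quantile normalization they were 6.45% and 4.07%. None of the 31 was 1.5-fold higher, and the highest ratio was 0.47 for Nr4a1. At 2-fold, which none of the 31 reached, 5.45% of all genes were higher and 3.21% lower. Among all genes past 1.5-fold, 50.2% were higher in HFHFr-F, but 64.9% after cyclic loess scaling and 62.1% after normexp and quantile normalization. The median of the 31 stayed below 0 under every alternative, from -0.26 to -0.05.

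After the switch to the normal diet the receptors and factors were close to control. HFHFr-N over control had a median of 0.00 for the 31 genes and 0.02 for all genes, with 16 of the 31 below 0, against 45.5% of all genes. None passed 1.5-fold in either direction, where 4.40% of all genes were higher and 3.64% lower (at 2-fold 1.15% and 0.825%). The lowest ratios were -0.54 for Nr2c1 and -0.47 for Hnf4a, and the highest was 0.41 for Nr4a1. Set directly against HFHFr-F, HFHFr-N had higher signal for 23 of 31 genes, against 60.8% of all genes, with a median of 0.22 against 0.10 for all genes. Ppargc1b, Nr2f2, Nr1h2 and Nr5a2 were at least 1.5-fold higher (12.9% of 31) and none was lower, with 9.11% of all genes higher and 9.18% lower (at 2-fold 2.15% and 3.66%). In that comparison 49.8% of all genes past 1.5-fold were higher, but 32.0% after cyclic loess, which also took the median of all genes from 0.10 to -0.01, and 33.5% after normexp and quantile normalization. Both comparisons of HFHFr-F, with control and with HFHFr-N, use the same HFHFr-F array.

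**Figure D2:**
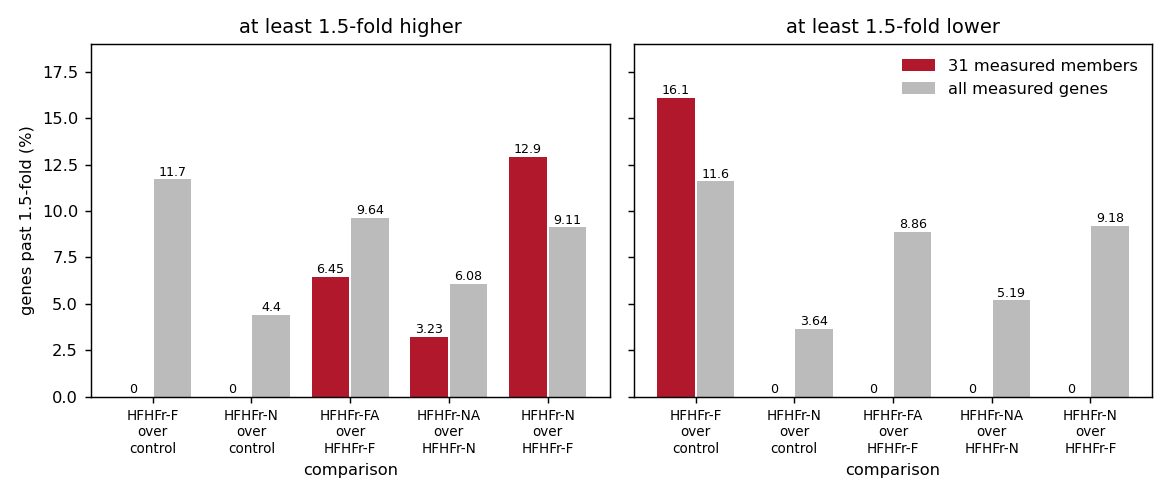
Percent of genes at least 1.5-fold higher (left) or lower (right) in each of the 5 comparisons, for the 31 measured receptors, coregulators and factors (red) and for all measured genes (grey). The red bar is above the grey one for lower genes in HFHFr-F over control, 16.1% against 11.6%, and for higher genes in HFHFr-N over HFHFr-F, 12.9% against 9.11%, and below it in the 8 others. After cyclic loess scaling the first of these becomes 6.45% against 7.93%.

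Retinoic acid on the HFHFr diet was followed by higher signal for 23 of the 31 genes in HFHFr-FA over HFHFr-F, against 52.8% of all genes, with a median of 0.27 against 0.03 for all genes. The coactivator Ppargc1b and the C/EBP protein Cebpd were at least 1.5-fold higher (6.45% of 31) and none was lower, where 9.64% of all genes were higher and 8.86% lower (at 2-fold 2.72% and 2.86%). This comparison also uses the same HFHFr-F array, and retinoic acid cannot be told apart here from the slide of HFHFr-FA. On the normal diet, HFHFr-NA over HFHFr-N had a median of 0.06 against 0.02, with 19 of 31 genes above 0, against 53.2% of all genes. Cebpd alone was 1.5-fold higher (3.23% of 31) and none was lower, against 6.08% and 5.19% of all genes (at 2-fold 1.51% and 1.33%). Over the alternatives the median of the 31 ran from 0.18 to 0.27 on the HFHFr diet and from 0.04 to 0.08 on the normal diet.

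Among the receptors for sterols and foreign compounds, the liver X receptors sense oxysterols and drive cholesterol export and lipogenesis. Nr1h2, the beta form, had signals of 2.54 in control, 1.79 in HFHFr-F, 2.22 in HFHFr-FA, 2.84 in HFHFr-N and 2.49 in HFHFr-NA. HFHFr-F was thus the lowest array and HFHFr-N the highest, with HFHFr-FA nearest to HFHFr-F. The log2 ratio was -0.50 for HFHFr-F over control and 0.67 for HFHFr-N over HFHFr-F, the latter 0.57 after cyclic loess, below the 1.5-fold line at 0.58. Nr1h3, the alpha form, ran only from 24.1 in HFHFr-F to 29.3 in HFHFr-NA. Nr1i2, the pregnane X receptor, a sensor of drugs and bile acids, was 6.98 in control, 8.35 in HFHFr-F, 7.46 in HFHFr-FA, 6.18 in HFHFr-N and 7.94 in HFHFr-NA. Its order differed from that of most of the list, with HFHFr-F highest and HFHFr-N lowest. Nr1i3, the constitutive androstane receptor, ran from 9.49 in HFHFr-FA to 12 in HFHFr-N. Ppard, a fatty acid receptor, was not well above background.

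The hormone receptors varied little over the arrays. Nr3c1, the glucocorticoid receptor, had signals from 5.39 in HFHFr-FA to 6.72 in HFHFr-N, and Nr3c2, the mineralocorticoid receptor, was not well above background. Nr3c1 was lower in HFHFr-NA over HFHFr-N by 0.30 on its brightest probe, and its other measured probes gave -0.76 and -0.06. Thra and Thrb encode the thyroid hormone receptors, of which Thrb is the main form in liver. Thra ran from 2.94 in HFHFr-F to 3.99 in HFHFr-NA and Thrb from 1.48 in HFHFr-F to 1.82 in control.

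Esr1, estrogen receptor alpha, was printed 10 times on each array, so its spread between spots is known. Its mean log2 signal was 0.17 ± 0.11 (SD of 10 spots) in control, 0.37 ± 0.058 in HFHFr-F, 0.61 ± 0.05 in HFHFr-FA, 0.22 ± 0.081 in HFHFr-N and 0.67 ± 0.056 in HFHFr-NA. The 2 arrays with retinoic acid were the highest, and their spots, from 0.53 up, did not overlap those of the other arrays, which reached 0.43. Spots of 1 array share the pool and the hybridisation and are not replicates of the group. The ratio was 0.24 for HFHFr-FA over HFHFr-F and 0.46 for HFHFr-NA over HFHFr-N.

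The lowest ratio to control among the orphan receptors was that of Hnf4a, the receptor that binds the promoters of many apolipoprotein, coagulation factor and cytochrome genes. Its brightest probe lies on chromosome 2 from 163398074 to 163398133 (mm9). Hnf4a signal was 15.1 in control, 8.62 in HFHFr-F, 12.1 in HFHFr-FA, 10.9 in HFHFr-N and 11.0 in HFHFr-NA. Control was the highest array and HFHFr-F the lowest, with the other groups between them. The ratio of HFHFr-F to control was 0.57, a log2 ratio of -0.81, and the other probes, placed elsewhere along the gene, both gave -0.75. HFHFr-N and control differed by -0.47, -0.42 and -0.45 on the 3 probes. HFHFr-FA was higher than HFHFr-F by 0.49, 0.38 and 0.39, while HFHFr-NA and HFHFr-N differed by only 0.01, 0.05 and 0.16.

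Nr5a2, the liver receptor homolog of bile acid and cholesterol metabolism, has a single probe, on chromosome 1 from 138740903 to 138740962 (mm9). Nr5a2 signal was 7.61 in control, 4.78 in HFHFr-F, 5.75 in HFHFr-FA, 7.58 in HFHFr-N and 8.23 in HFHFr-NA. The 2 groups still on the HFHFr diet were low and the 3 others lay near control. HFHFr-F over control was -0.67 and HFHFr-N over HFHFr-F was 0.67, each 0.57 in size at the least under the alternatives. Nr2c1 and Nr2c2 encode the testicular orphan receptors, which bind half-site repeats and often repress. Nr2c1 signal was 0.795 in control, 0.529 in HFHFr-F, 0.646 in HFHFr-FA, 0.546 in HFHFr-N and 0.660 in HFHFr-NA, with control highest on this brightest probe, whereas HFHFr-FA was highest on both other probes. Its 3 probes gave -0.59, -0.67 and -0.62 for HFHFr-F over control. For HFHFr-N over control they gave -0.54, -0.15 and -0.25, so the other probes were nearer to control after the switch than the brightest one. For HFHFr-FA over HFHFr-F they gave 0.29, 0.74 and 0.70, past 1.5-fold on the dimmer probes only. Nr2c2 had the signals 0.506, 0.428, 0.634, 0.522 and 0.774 in control, HFHFr-F, HFHFr-FA, HFHFr-N and HFHFr-NA. On this brightest probe both arrays with retinoic acid were above the 3 without it, by 0.57 over the same diet each time, just under 1.5-fold. The other Nr2c2 probe was well above background only in HFHFr-FA and HFHFr-NA, at log2 signals of -3.5 and -3.24. Control, not well above background there, was at -3.21, so the other probe did not show that order.

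The promoters of the 3 genes with the lowest ratios in HFHFr-F over control, Foxa3, Hnf4a and Nr5a2, are shown so that the sequence near their starts can be read beside these values. RefSeq windows (GRCm38.p6) of 300 bases, from 250 before to 50 after a start, were found for 27 of the 35 genes, 38 windows in all. They were searched on both strands for the receptor half-sites AGGTCA and AGTTCA, the forkhead core TGTTTAC and the C/EBP core TTGCNNAA. Capitals mark a match, and a window without capitals held none of the 4. The windows lie at chr2:163506607-163506906 (+) and chr2:163546905-163547204 (+) for Hnf4a, chr1:136960399-136960698 (-) and chr1:136953581-136953880 (-) for Nr5a2 and chr7:19023490-19023789 (-) for Foxa3. These coordinates are of another build than those of the probes.
Hnf4a, the first start: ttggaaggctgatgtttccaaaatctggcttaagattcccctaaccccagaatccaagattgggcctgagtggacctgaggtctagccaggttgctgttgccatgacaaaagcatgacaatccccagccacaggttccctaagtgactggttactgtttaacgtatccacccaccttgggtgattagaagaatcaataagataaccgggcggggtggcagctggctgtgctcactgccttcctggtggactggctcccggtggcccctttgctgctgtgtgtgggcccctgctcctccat
Hnf4a, the second start: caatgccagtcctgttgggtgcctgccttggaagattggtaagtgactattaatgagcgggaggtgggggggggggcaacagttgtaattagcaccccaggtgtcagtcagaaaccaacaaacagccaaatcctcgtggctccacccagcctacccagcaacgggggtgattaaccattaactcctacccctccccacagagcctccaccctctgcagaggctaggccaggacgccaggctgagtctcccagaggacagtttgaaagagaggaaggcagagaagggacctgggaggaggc
Nr5a2, the first start: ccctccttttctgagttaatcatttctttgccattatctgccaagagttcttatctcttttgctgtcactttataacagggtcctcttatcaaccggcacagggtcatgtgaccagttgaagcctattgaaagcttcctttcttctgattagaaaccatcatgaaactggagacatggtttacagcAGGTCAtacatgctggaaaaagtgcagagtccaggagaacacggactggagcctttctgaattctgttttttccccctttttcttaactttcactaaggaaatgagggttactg
Nr5a2, the second start: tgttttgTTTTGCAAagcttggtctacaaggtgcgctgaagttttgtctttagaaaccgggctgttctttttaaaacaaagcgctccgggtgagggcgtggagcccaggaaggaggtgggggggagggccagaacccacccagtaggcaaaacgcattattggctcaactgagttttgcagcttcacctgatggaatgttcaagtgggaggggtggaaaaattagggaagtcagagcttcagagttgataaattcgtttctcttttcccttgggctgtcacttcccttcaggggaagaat
Foxa3: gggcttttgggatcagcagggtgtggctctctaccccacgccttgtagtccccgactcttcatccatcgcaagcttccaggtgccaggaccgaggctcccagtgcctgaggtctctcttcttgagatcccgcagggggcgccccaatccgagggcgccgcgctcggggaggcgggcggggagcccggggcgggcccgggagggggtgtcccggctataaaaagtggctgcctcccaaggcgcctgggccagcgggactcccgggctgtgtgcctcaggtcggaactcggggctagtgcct
In the first Nr5a2 window AGGTCA stood at bases 187 to 192 of the window, and in the second the C/EBP core was read on the opposite strand at bases 8 to 15. The half-site AGGTCA was in 2 of the 38 windows (5.26%) and in 16.3% of all 32851 promoter windows, and AGTTCA in 3 (7.89%) and 14% of all. TGTTTAC was in 2 (5.26%, against 3.65%) and TTGCNNAA in 5 (13.2%, against 10.8%). A match is a description of the letters only.

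The COUP transcription factors are receptors that often repress and compete with others for half-sites. Nr2f2 signal was 5.85 in control, 4.55 in HFHFr-F, 3.63 in HFHFr-FA, 7.34 in HFHFr-N and 6.76 in HFHFr-NA. Both groups that stayed on the HFHFr diet were lower than both groups switched to the normal diet. HFHFr-N over HFHFr-F was 0.69, but 0.22 on the other probe measured in both, and HFHFr-F over control was -0.36 on the brightest probe and 0.19 on the other. The retinoic acid comparison on the HFHFr diet gave -0.32 and -0.44. Nr2f6, a close relative, ran from 36.6 in HFHFr-FA to 47.7 in HFHFr-N in a like order, and Nr2f1 was not well above background.

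Esrra, an orphan receptor that works with PGC-1 coactivators on mitochondrial genes, had signals of 8.63 in control, 8.92 in HFHFr-F, 7.57 in HFHFr-FA, 11.2 in HFHFr-N and 15.3 in HFHFr-NA. HFHFr-NA stood above the rest. Retinoic acid comparisons were of opposite direction, 0.46 for HFHFr-NA over HFHFr-N and -0.24 for HFHFr-FA over HFHFr-F. The other probe gave 1.0 and 0.42, so the direction on the HFHFr diet depended on the probe. Nr4a1, an immediate early receptor, was 1.13 in control and in HFHFr-NA, 1.55 in HFHFr-F, 1.77 in HFHFr-FA and 1.49 in HFHFr-N. HFHFr-NA was at the control level and the 3 other arrays were above it. Rora, a receptor of the liver clock and of lipid genes, was lowest in HFHFr-F, 3.12, and 3.53 to 4.18 elsewhere, with -0.42, -0.53 and -0.06 for HFHFr-F over control on its 3 probes. Hnf4g, the relative of Hnf4a, was not well above background.

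Among the coregulators, Ppargc1b, the beta form of the PGC-1 coactivators of mitochondrial and lipogenic genes, varied most. Ppargc1b signal was 1.87 in control, 1.22 in HFHFr-F, 2.12 in HFHFr-FA, 2.02 in HFHFr-N and 2.64 in HFHFr-NA. HFHFr-F was the single low array, and the group given both the normal diet and retinoic acid was the highest. The 3 probes gave -0.62, -0.69 and -0.86 for HFHFr-F over control and 0.73, 0.83 and 0.90 for HFHFr-N over HFHFr-F. For HFHFr-FA over HFHFr-F they gave 0.80, 0.92 and 0.58, and for HFHFr-NA over HFHFr-N 0.39, 0.39 and 0.24. All of these comparisons but the last start or end at HFHFr-F. The ratio to control on the brightest probe was -0.42 after normexp and quantile normalization.

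The p160 coactivators bind liganded receptors. Ncoa1 had almost the same signal on every array, 5.08 to 5.65. Ncoa3 was 1.88 in control, 1.70 in HFHFr-F, 2.35 in HFHFr-FA, 1.52 in HFHFr-N and 2.01 in HFHFr-NA, with both retinoic acid arrays above the 3 others. The retinoic acid ratios were 0.47 on the HFHFr diet and 0.40 on the normal diet, where the dimmest of its 3 probes gave 0.54 and -0.21. Ncoa2 was 0.516 in HFHFr-FA and 0.395 to 0.434 elsewhere, but its other measured probe was lower in HFHFr-FA over HFHFr-F, -0.71 against 0.39. The corepressor Ncor1, which recruits histone deacetylase to unliganded receptors, was lowest in HFHFr-F at 9.40 and highest in HFHFr-FA at 12.4. All 4 measured probes of Ncor1 were lower in HFHFr-F than in control, from -0.79 to -0.06, and higher in HFHFr-FA than in HFHFr-F, from 0.25 to 0.73. Nrip1, a corepressor of receptors in fat and liver, was 1.65 in control and in HFHFr-F, 2.04 in HFHFr-FA, 1.41 in HFHFr-N and 1.23 in HFHFr-NA.

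**Figure D3:**
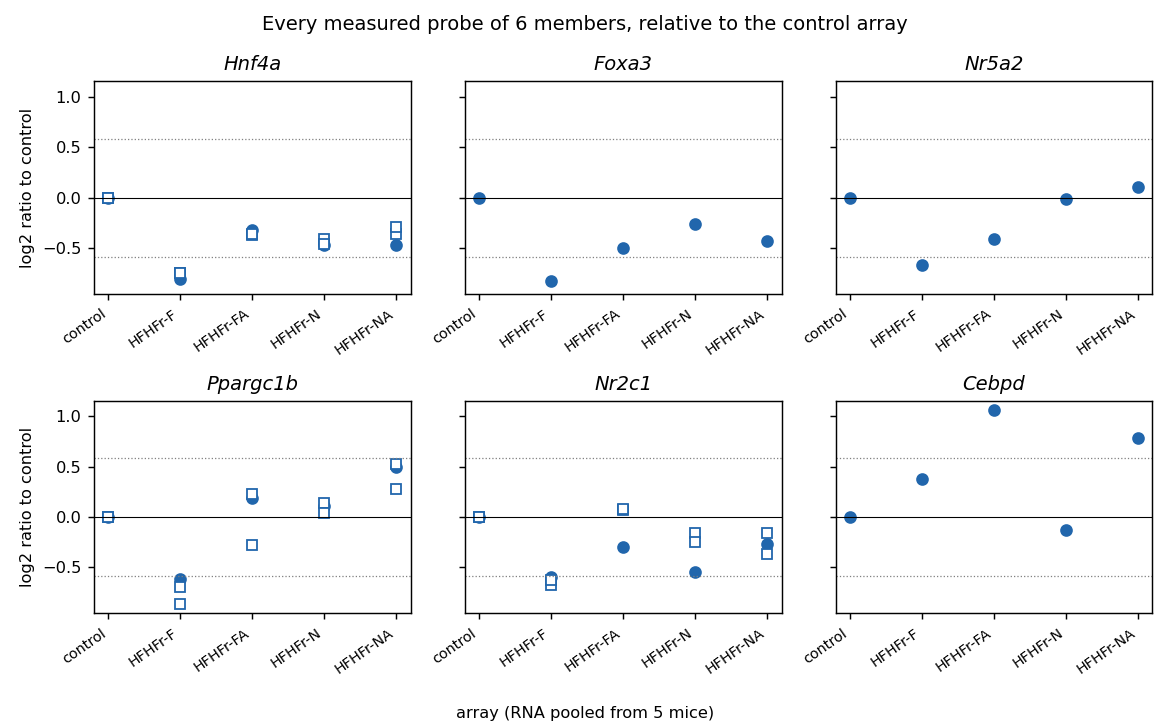
Log2 ratio to the control array (vertical axis) on each array (horizontal axis) for every measured probe of Hnf4a, Foxa3, Nr5a2, Ppargc1b, Nr2c1 and Cebpd; filled circles are the probe that stands for the gene, open squares its other probes, and dotted lines mark 1.5-fold. All probes of the first 5 genes lie below 0 in HFHFr-F, from -0.86 to -0.59, while Cebpd is above control on the 3 arrays HFHFr-F, HFHFr-FA and HFHFr-NA.

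The forkhead factors of the FOXA family open chromatin at liver genes. Foxa3 signal was 4.62 in control, 2.61 in HFHFr-F, 3.27 in HFHFr-FA, 3.87 in HFHFr-N and 3.44 in HFHFr-NA. Control was highest and HFHFr-F lowest, at 0.565 of control, a log2 ratio of -0.82 on its single probe (chromosome 7, 19599053 to 19599112, mm9). Foxa1, a relative, was 0.303 in HFHFr-F and 0.363 to 0.448 elsewhere, so HFHFr-F was its lowest array too, at -0.26 over control. Foxa2, printed 10 times, had a mean log2 signal of 4.17 ± 0.036 (SD of 10 spots) in control, 4.12 ± 0.025 in HFHFr-F, 4.05 ± 0.042 in HFHFr-FA, 3.97 ± 0.034 in HFHFr-N and 4.35 ± 0.027 in HFHFr-NA. The HFHFr-NA spots, from 4.31, lay above all others, and the ratio of HFHFr-NA over HFHFr-N was 0.38. Whether Foxa3 differed from Foxa1 and Foxa2 in its response could not be tested.

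Onecut2, a cut-homeobox factor of liver and bile duct development, was 12.2 in HFHFr-F and 14.0 to 15.9 elsewhere, and its 3 probes gave -0.27, -0.34 and -0.40 for HFHFr-F over control. Prox1, a homeobox corepressor of bile acid genes in the hepatocyte, ran from 4.22 in HFHFr-F to 5.0 in HFHFr-FA on the brightest probe. Its probes were apart, with -0.14, -0.86 and -0.43 for HFHFr-F over control and -0.03, -0.76 and -0.48 for HFHFr-N over control. For the 17 genes of the list with further measured probes, 25 of 28 such probes had the sign of the brightest probe in HFHFr-F over control, 23 in HFHFr-N over control, 24 in HFHFr-FA over HFHFr-F, 18 in HFHFr-NA over HFHFr-N and 22 in HFHFr-N over HFHFr-F.

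The C/EBP proteins bind a shared core motif and drive acute phase and metabolic genes. Cebpd, which of the 31 genes had the highest ratio after retinoic acid on the normal diet and the next after Ppargc1b on the HFHFr diet, was measured by a single probe on chromosome 16 from 15888459 to 15888518 (mm9). Cebpd, an acute phase factor induced by cytokines and glucocorticoids, was 10.3 in control, 13.4 in HFHFr-F, 21.4 in HFHFr-FA, 9.37 in HFHFr-N and 17.6 in HFHFr-NA. Both retinoic acid arrays were above all others, by 0.68 over HFHFr-F and by 0.91 over HFHFr-N. Cebpb, a factor of the acute phase and of gluconeogenesis, was 57.5 in control, 62.8 in HFHFr-F, 84.8 in HFHFr-FA, 57.5 in HFHFr-N and 76.8 in HFHFr-NA. On its brightest probe it had the same order of retinoic acid over the rest, with ratios of 0.43 and 0.42. Its other probe gave 0.22 and 0.25, but there HFHFr-NA, at a log2 signal of 2.86, was below HFHFr-F, at 2.96. Cebpa, the factor of the mature hepatocyte, was 29.7 in control, 25.2 in HFHFr-F, 22.4 in HFHFr-FA, 27.1 in HFHFr-N and 28.4 in HFHFr-NA. Control was the highest array here and HFHFr-FA the lowest.

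The retinoic acid comparisons on the HFHFr and on the normal diet share no array, so they can be set side by side. Of the 31 genes 15 were higher in both, 4 lower in both and 12 of opposite direction. Among 14086 genes measured in both comparisons these shares were 31.7%, 25.8% and 42.4%. Directions were counted by sign alone, however small the ratio. The 15 include Thra (0.0 and 0.06), Thrb (0.24 and 0.01) and Ncoa2 (0.39 and 0.02), and the 12 include Ncoa1 (0.02 and -0.07). The 4 lower in both were Nr1i3, Nr3c1, Nr2f2 and Nr2f6, by 0.07 to 0.32 on the HFHFr diet and by 0.08 to 0.30 on the normal diet. Ppargc1b had 0.80 and 0.39, Hnf4a 0.49 and 0.01, and Nr2c1 0.29 and 0.27. The widest gaps between the diets were 0.69 for Esrra, 0.59 for Nr4a1, which was higher by 0.19 on the HFHFr diet and lower by 0.40 on the normal diet, and 0.53 for Nr1i2. With 1 array a group these differences between diets were not tested. The neutrophil markers, summed, were also higher on both retinoic acid arrays than on the array of the same diet, 11.4 against 6.11 and 6.74 against 3.77, and their part in the Cebpd and Cebpb values was not tested.

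**Figure D4:**
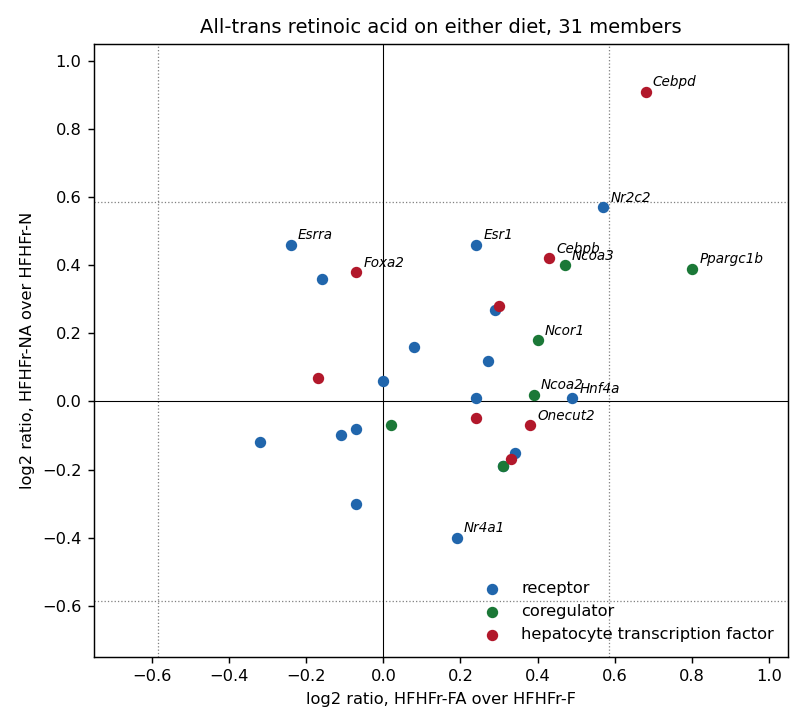
Each of the 31 measured genes by its log2 ratio for retinoic acid on the HFHFr diet (horizontal axis, HFHFr-FA over HFHFr-F) and on the normal diet (vertical axis, HFHFr-NA over HFHFr-N), coloured by role. Dotted lines mark 1.5-fold. Genes with a ratio of at least 0.38 in size on either diet are named, most of them inside these lines. Cebpd is past both lines and Nr2c2 just inside both, at 0.57 and 0.57.

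Other genes of the same families, taken from lists of their own, gave the setting for these values. The counts of these lists and of the target lists below stand beside the following shares of all genes at 1.5-fold. In HFHFr-F over control 11.7% were higher and 11.6% lower. In HFHFr-FA over HFHFr-F the shares were 9.64% and 8.86%, and in HFHFr-NA over HFHFr-N 6.08% and 5.19%. Of 26 other nuclear receptors 17 were measured in HFHFr-F over control, with 3 at least 1.5-fold higher and 4 lower and a median of -0.12. The clock repressor Nr1d1 was lower by 2.95, and Nr0b2, the small partner that represses bile acid synthesis, was lower by 1.36. Nr1d1 had signals of 1.06 in control, 0.137 in HFHFr-F, 0.0651 in HFHFr-FA, 0.925 in HFHFr-N and 0.682 in HFHFr-NA, low in both groups on the HFHFr diet and in HFHFr-FA not well above background. Rarb, a retinoic acid receptor gene that is itself a retinoic acid target, was 2.38 in HFHFr-NA and 0.801 to 1.34 elsewhere, with ratios of 1.19 on the normal diet and -0.08 on the HFHFr diet. None of 19 other coregulators passed 1.5-fold in HFHFr-F over control (median -0.25). In HFHFr-FA over HFHFr-F 3 of the 19 were higher and 1 lower, and Ppargc1a, the alpha form beside Ppargc1b, was the 1 higher in HFHFr-NA over HFHFr-N, at 0.81.

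Other hepatocyte transcription factors had 0 higher and 6 lower of 18 in HFHFr-F over control, with a median of -0.09 that ran from -0.25 to 0.01 over the alternatives. The 6 were Xbp1 (-1.04) of the unfolded protein response, Atf5 (-1.01), the amino acid metabolism factor Klf15 (-0.79), Tbx3 (-0.74), Creb3l3 (-0.73), a membrane-bound factor of fasting, and Onecut1 (-0.61). In HFHFr-FA over HFHFr-F 4 were higher and 1 lower. Mlxipl, the carbohydrate response factor, was highest at 1.21 and the repressor Bcl6 lowest at -1.20. None passed 1.5-fold in HFHFr-NA over HFHFr-N, with ratios of -0.02 for Mlxipl and 0.54 for Bcl6.

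Textbook target genes were described beside the receptors that regulate them, and most are targets of other factors as well. Of 13 measured targets of Nr1i2 and Nr1i3, none was 1.5-fold higher and 9 were lower in HFHFr-FA over HFHFr-F (median -0.81, 2 of the ratios being bounds). Of 12 in HFHFr-NA over HFHFr-N, 1 was higher and 6 lower (median -0.59, 2 bounds). Cyp3a11, the main drug-oxidising cytochrome on the list, was 276 in control, 85.0 in HFHFr-F, 23.5 in HFHFr-FA, 248 in HFHFr-N and 107 in HFHFr-NA. Gsta2, a glutathione transferase, was 11.0, 13.4, 2.0, 9.49 and 2.63 in the same order. Both were lower with retinoic acid on either diet, by 1.85 and 1.21 for Cyp3a11 and by 2.75 and 1.85 for Gsta2. Por, the reductase that feeds cytochromes, went the other way, 0.41 and 0.86. The receptors themselves had ratios of only -0.16 and 0.36 (Nr1i2) and -0.11 and -0.10 (Nr1i3).

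Targets of the liver X receptors were higher in HFHFr-F over control for 5 of 11 and lower for none (median 0.47), and lower in HFHFr-FA over HFHFr-F for 5 and higher for none (median -0.49). Srebf1, the lipogenic master regulator, was 11.9 in control, 45.3 in HFHFr-F, 19.6 in HFHFr-FA, 39.4 in HFHFr-N and 24.7 in HFHFr-NA. Pltp, a phospholipid transfer protein, was 0.909, 2.75, 1.02, 1.31 and 0.852 in the same order. HFHFr-F was highest for both, and Srebf1 remained above control in HFHFr-N, by 1.73, where Pltp was above it by 0.53. Lpl, on the same list, was higher by 1.63 in HFHFr-F over control, and macrophages express it too. In that comparison Abcg1 was at 1.06 and Abcg5 at 0.47, but Abca1 (-0.11) and Abcg8 (-0.32) lay below 0.

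Hnf4a targets in HFHFr-F over control counted 1 higher and 4 lower of 11 (median -0.29). The 4 were Mttp (-1.15), which loads lipid onto apolipoprotein B, Cyp2c29 (-0.94), Cyp8b1 (-0.87) of bile acid synthesis and the urea cycle gene Otc (-0.67). Apoa4 was the higher one, at 2.35. In HFHFr-FA over HFHFr-F 1 was higher and 1 lower (median 0.08).

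Targets of the C/EBP proteins were at least 1.5-fold higher for 6 of 12 and lower for none with retinoic acid on either diet, with medians of 0.50 on the HFHFr diet and 0.59 on the normal diet. Tat was higher by 0.98 and 0.93, Cps1 by 0.89 and 1.07 and Ass1 by 0.64 and 1.1, while Hamp, the iron hormone, was higher by 2.48 and 0.49. The 6 were not all the same genes on the 2 diets. Saa1 (0.98 and 0.57) and Hamp passed 1.5-fold on the HFHFr diet only. Lcn2 (0.35 and 1.4) and Gys2 (-0.11 and 0.99) passed it on the normal diet only. Otc, also on the list, was at 0.08 and -0.42. In HFHFr-F over control the list split, with 3 higher, the acute phase genes Saa2 (3.12), Saa1 (2.93) and Lcn2 (at least 5.03), and 5 lower, among them Hamp (-1.85), Cps1 (-1.37) and Tat (-1.26). Signal shared between the near-identical Saa1 and Saa2, and between Gsta1 and Gsta2, cannot be told apart here, and Cyp3a11 has close relatives too. Targets of Nr3c1 were higher for 8 of 13 and lower for none in HFHFr-NA over HFHFr-N (median 0.66), and for 4 of 13 in HFHFr-FA over HFHFr-F (median 0.35). Igfbp1, a binding protein of insulin-like growth factors, was highest at 1.68 and 2.29. Tat is on both of these lists.

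Targets of Esrra and Ppargc1b, all genes of mitochondrial metabolism or dynamics, lay close to 0. Of 12, 1 was 1.5-fold higher in HFHFr-F over control (Mfn2, 0.60), and none was lower in any comparison. Their median was -0.04 in HFHFr-F over control and -0.16 in HFHFr-FA over HFHFr-F, where Ppargc1b itself was lower by 0.62 and higher by 0.80. Thyroid hormone receptor targets counted 2 higher and 1 lower of 9 in HFHFr-F over control (median 0.12), with Thrsp, a lipogenic gene, at 5.07 and Klf9 at -0.97. For Nr5a2 and Prox1, 2 of 7 were higher and 2 lower, with Nr0b2 at -1.36. Of the 152 genes on the lists 8 stand on more than 1.

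**Figure D5:**
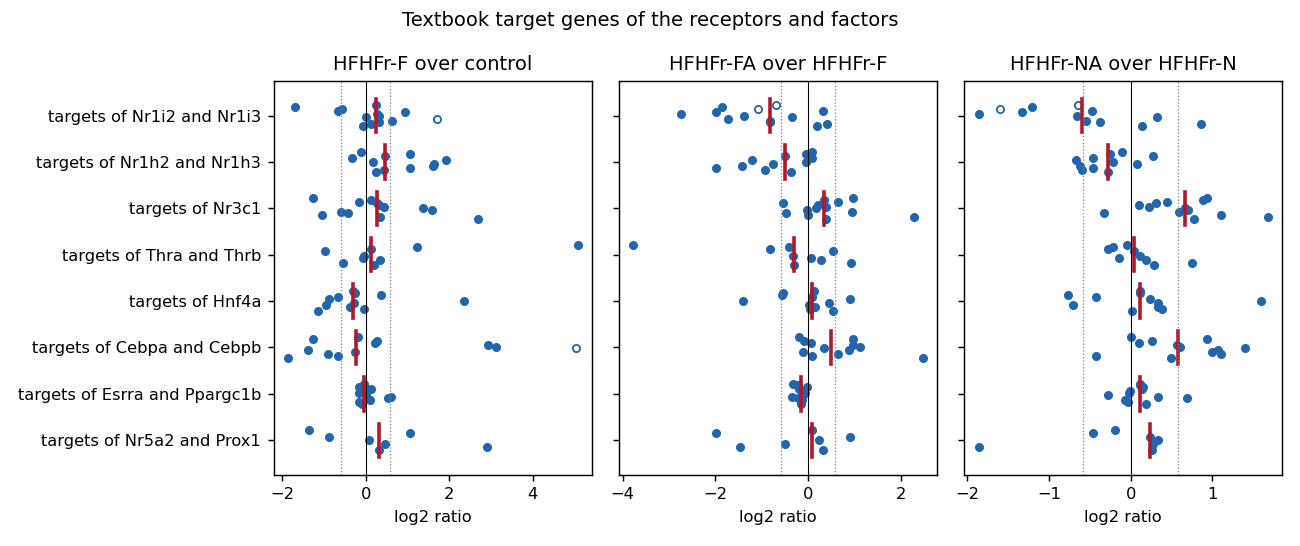
Log2 ratio (horizontal axis) of each measured target gene in 8 lists (rows) for HFHFr-F over control, HFHFr-FA over HFHFr-F and HFHFr-NA over HFHFr-N; open circles are bounds, red bars the list's median and dotted lines 1.5-fold. Targets of Nr1i2 and Nr1i3 lie mostly left of 0 in both retinoic acid panels, with medians of -0.81 and -0.59, and targets of Esrra and Ppargc1b stay close to 0 in all 3.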

How the data were processed

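Liver RNA pooled from 5 mice per group was hybridised in 1 colour to 5 Agilent whole mouse genome arrays, 1 per group. The processed intensity of each spot was deposited unscaled between arrays. Per the file headers it was made with Feature Extraction 10.5.1.1 by subtracting background and removing spatial trends. Probe positions are on mm9, per the file headers. In which part of a gene a probe lies was not determined, because a genome on mm9 was not used. The deposited value table gives the ratio, on a linear scale, of that intensity to 1 constant for each array. The constant was found by setting each column against the scanner values and equals the 75th percentile of all spots to the digits given, between 165.3 and 214.7. The table is not centred and runs in the direction of the signal. The medians of its columns were 0.0700 for control, 0.0675 in HFHFr-F, 0.0721 in HFHFr-FA, 0.0738 in HFHFr-N and 0.0744 in HFHFr-NA. The reason for that constant is not given in the labels.

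The main value was log2 of the processed intensity less log2 of the 75th percentile of non-control spots on that array, 172.2 to 222.6, with outlier spots (60 to 96 per array) left out and the spots of a probe averaged. No spot was saturated. The number of arrays limits the precision. Gene names are those of the array's design and can be old. Each gene was represented by its brightest probe on average over the arrays. A comparison used genes well above background in either of its groups. Where only 1 group measured the gene, its ratio is a bound, written "at least". The dim side was then taken as the gene's own signal or the lowest reliably measured signal of that array, whichever was higher. Counts used 1.5-fold, a log2 ratio of 0.58, with 2-fold beside it. Alternatives were 2 other scalings, normexp background correction (offset 50) with quantile normalization, the value table, the mean of all probes, stricter and no filters on dim probes, names through RefSeq accessions and the 2-fold line. Python 3.11.15, R 4.3.3 and limma 3.58.1 were used, and the ratio and count steps were tested on simulated data.

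All 35 genes, up to 4 genes per list with the largest ratio in a comparison, Cyp26a1 and the other probes of the genes with the widest range could be named. Creb3l3, Onecut1, marker genes and the other probes of further receptors and factors were named after their values were seen. The lists held 226 symbols, of which 217 were found on the array. Some genes of the lists are not reported here by name. The genes and lists were chosen with earlier results of these data known.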

Additional observations from a re-analysis of the deposited data

How the results depend on the processing

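Of 130 recomputed counts and medians of the 31 genes 112 stayed within 1.5 times or the set margin, 18 moved and none reversed. The cause was not tested. The 5 genes lower in HFHFr-F over control became 3 after median centring, 2 after cyclic loess, 2 after normexp and quantile normalization and 0 at 2-fold. Foxa3 (-0.83 to -0.68) and Hnf4a (-0.82 to -0.71) passed 1.5-fold under all 8 alternatives to it that were run on single genes, as did Ppargc1b (0.70 to 0.80) and Cebpd (0.67 to 0.79) in HFHFr-FA over HFHFr-F and Cebpd (0.83 to 0.92) in HFHFr-NA over HFHFr-N. The other 7 values past 1.5-fold kept their sign but not the fold. In HFHFr-N over control the count of 0 higher became 1 with the mean of all probes (Nr2f2), and that of 0 lower became 1 with no filter on dim probes (Hnf4g, which is not well above background). The 2 higher in HFHFr-FA over HFHFr-F became 0 at 2-fold. The 1 higher in HFHFr-NA over HFHFr-N became 2 after cyclic loess (Nr2c2), 3 with the mean of all probes (Esr1 and Esrra), 2 with no filter (Hnf4g) and 0 at 2-fold. The 4 higher in HFHFr-N over HFHFr-F became 2 after cyclic loess, 1 after normexp and 0 at 2-fold, and the 0 lower became 1 after cyclic loess (Cebpd, -0.61), 1 after normexp (Cebpd, -0.59) and 1 with no filter (Hnf4g). The median there was 0.07 after normexp, against 0.22. Nr2f2 in that comparison was 0.22 with the mean of all probes. No paired analysis was possible because each group is 1 array.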
